A study of Sus scrofa with 8 samples.

Results

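NPPA and NPPB are the natriuretic peptide genes of heart muscle. They were chosen by gene symbol in the platform annotation, and each was measured by 1 probe set, so they are 2 of the 6765 genes with a symbol of their own among 23999 probe sets tested. The 8 arrays came from 8 castrated male Yorkshire pigs under 1 year of age, 1 array for each animal, and all of the animals had a myocardial infarct. Left ventricular muscle was taken away from the infarct in 3 untreated animals, in 3 animals infused with 0.67 mg/kg GGF2 (low dose) and in 2 animals infused with 2.0 mg/kg (high dose), in both cases per infusion over 4 weeks. GGF2, glial growth factor 2, belongs to the neuregulin-1 proteins, whose receptors on heart muscle cells are ERBB kinases. No vehicle is named for the untreated animals, and p-values measure the spread between these few animals; every comparison is among infarcted hearts.

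NPPA encodes the precursor of atrial natriuretic peptide and NPPB that of B-type natriuretic peptide, hormones that heart muscle secretes when its wall is stretched. Both act through a membrane guanylate cyclase, NPR1, which makes cyclic GMP and so promotes salt and water loss and relaxes vessels. In the adult heart NPPA is expressed mainly in the atria, and the ventricle raises both genes under load and after infarction, which is why circulating B-type peptide is used to follow heart failure. The comparisons ask how the level of each gene in remote ventricular muscle differed with the dose of GGF2.

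NPPB was low in the high-dose animals. The level, an RMA value on the log2 scale, was 8.41, 8.77 and 9.09 in the untreated animals, 7.32, 8.56 and 9.77 in the low-dose animals, and 6.21 and 6.80 in the high-dose animals. Both high-dose values lay below every other array, whereas the low-dose animals ranged from below to above all of the untreated animals. Of all probe sets, 12.0% were lower in both high-dose arrays than in every untreated array. Against every low-dose array the share was 13.0%, and the share lower than both groups at once was not counted.

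NPPA showed another pattern. Its level was 8.45, 8.45 and 8.59 in the untreated animals, 7.44, 8.05 and 8.28 in the low-dose animals, and 6.09 and 8.21 in the high-dose animals. All 5 treated animals lay below all 3 untreated animals, but high-dose replicate 1 did so by a small margin and was higher than 2 of the 3 low-dose animals.

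**Figure D1:**
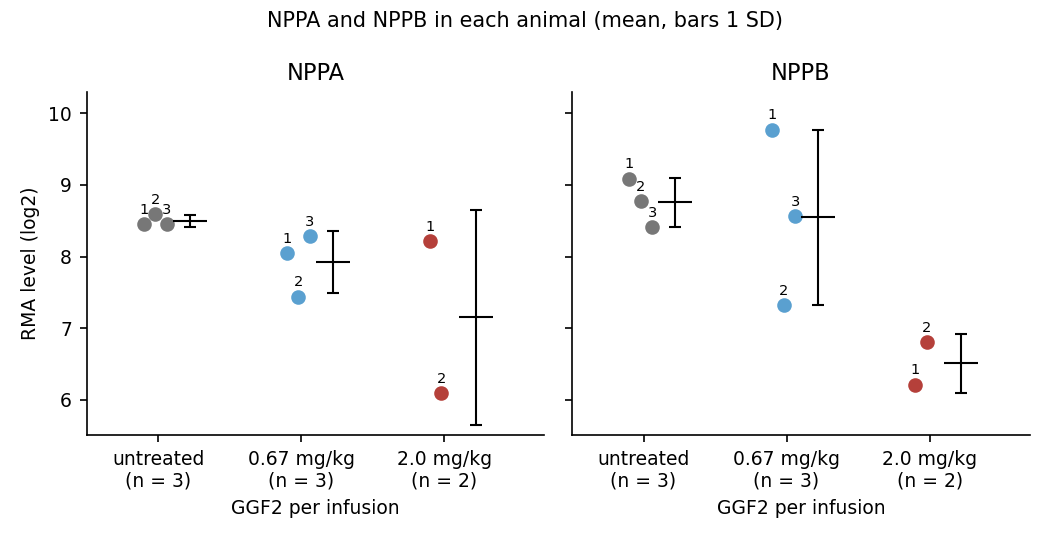
RMA level on the log2 scale of NPPA (left) and NPPB (right) in each animal, with untreated, low-dose and high-dose animals from left to right; numbers mark the replicate, horizontal lines the group mean and bars 1 SD (n = 3, 3 and 2). For NPPB both high-dose animals sit below all others, at 6.21 and 6.80, and for NPPA the high-dose animals are far apart, at 6.09 and 8.21.

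At the high dose against untreated, NPPB averaged 6.50 ± 0.42 in high-dose animals (SD, n = 2) and 8.76 ± 0.34 in untreated animals (SD, n = 3). The log2 change was -2.25 ± 0.59 (SE; 95% confidence interval -3.59 to -0.91), a level 4.77-fold lower with a limma adjusted p of 0.392 (Benjamini-Hochberg, over all probe sets). It therefore did not pass an adjusted p of 0.05. Nor did any other probe set in this comparison: 0 of 23999, or 0%, passed, and 7.97% had an unadjusted limma p under 0.05, 4.36% with a lower level. In size the change was the 11th most negative of all probe sets, and by p it was in place 271 of all of them. Complete separation of the groups was common here, since 12.0% of all probe sets were lower in both high-dose arrays than in every untreated array.

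NPPA averaged 7.15 ± 1.50 in high-dose animals (SD, n = 2) and 8.50 ± 0.08 in untreated animals (SD, n = 3). Its log2 change was -1.34 ± 0.52 (SE; 95% confidence interval -2.53 to -0.16), 2.54-fold lower, with a limma adjusted p of 0.559; like that of NPPB, its p was under 0.05 before adjustment. This mean rested on high-dose replicate 2. Without that animal the change was -0.28 ± 0.30 (limma adjusted p = 0.941), and without high-dose replicate 1 it was -2.40 ± 0.30 (0.305). The NPPB change was not decided by either animal, at -1.96 ± 0.78 without high-dose replicate 1 and -2.55 ± 0.78 without high-dose replicate 2, with limma adjusted p = 1.00 and 0.559.

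**Figure D2:**
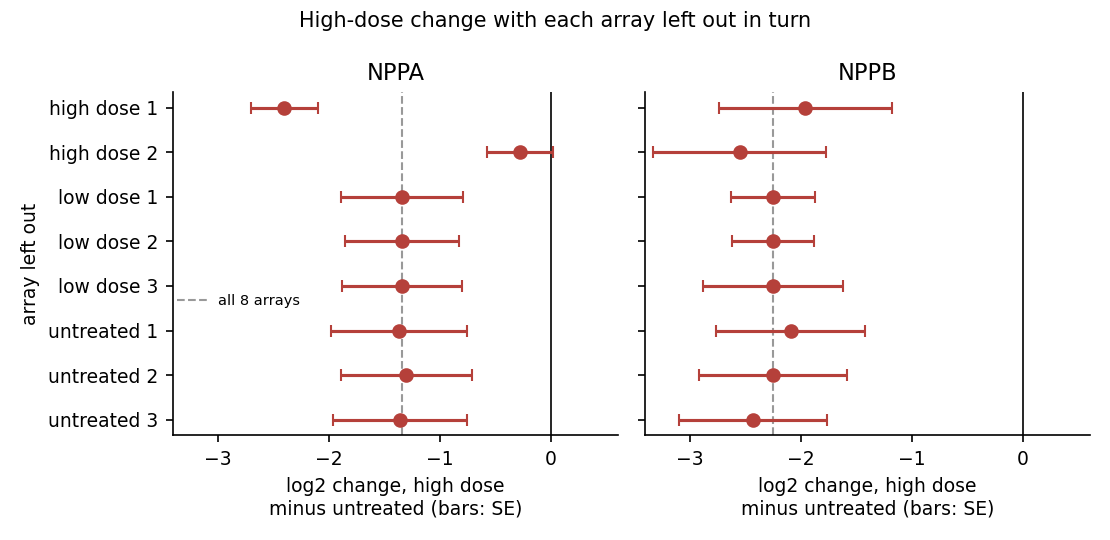
Log2 change at the high dose against untreated for NPPA (left) and NPPB (right) when each array in turn was left out, with the standard error as bars; the dashed line is the change with all 8 arrays. The NPPA value runs from -2.40 to -0.28 depending on which high-dose animal is left out, while NPPB stays between -2.55 and -1.96.

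The spread used to judge the NPPB change came largely from the low-dose group, where its SD was 1.23 (n = 3). When only the high-dose and untreated arrays were fitted, the same change of -2.25 had a standard error of 0.25 and a limma adjusted p of 0.156. The difference in NPPB was thus several times the SD within either of those groups, and it did not pass the threshold over all probe sets in any fit run.

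At the low dose against untreated, no difference was detected for either gene in the fit of all arrays, where 0% of probe sets passed, 4.50% had an unadjusted p under 0.05 and 1.74% did so with a lower level. NPPA averaged 7.93 ± 0.43 in low-dose animals and 8.50 ± 0.08 in untreated animals (SD, n = 3 each), a log2 change of -0.57 ± 0.46 (SE; 95% confidence interval -1.63 to 0.49; limma adjusted p = 0.998). All 3 low-dose values lay below all untreated ones, as they did for 3.87% of all probe sets. In a fit of only these 2 groups, the NPPA change had a standard error of 0.21 and a limma adjusted p of 0.998, with a p under 0.05 before adjustment. NPPB averaged 8.55 ± 1.23 in low-dose animals and 8.76 ± 0.34 in untreated animals (SD, n = 3 each), a log2 change of -0.21 ± 0.53 (SE; 95% confidence interval -1.41 to 0.99; limma adjusted p = 0.998). Its sign turned to 0.41 without low-dose replicate 2, and it was -0.82 without low-dose replicate 1. The interval leaves room for a low-dose level of NPPB up to 2.65-fold lower than untreated, and also for one higher by up to 0.99 log2 units.

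The difference between the doses was tested directly. NPPB was lower at the high dose than at the low dose by a log2 difference of -2.04 ± 0.59 (SE; 95% confidence interval -3.38 to -0.70; limma adjusted p = 0.305). In size it was the 10th most negative difference of all probe sets, and by p it was in place 595 of all of them. In this comparison 0.0250% of probe sets passed, 10.2% had an unadjusted p under 0.05, 5.85% with a lower level, and 13.0% were lower in both high-dose arrays than in every low-dose array. Part of the size of the NPPB difference came from low-dose replicate 1, and without it the value was -1.43 ± 0.41 (limma adjusted p = 0.328). NPPA differed by -0.77 ± 0.52 (SE; 95% confidence interval -1.95 to 0.41; limma adjusted p = 0.667). Without high-dose replicate 2 its sign turned, to 0.29 ± 0.30.

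With the dose taken as a number, NPPB changed by -1.15 ± 0.30 log2 units for each mg/kg of GGF2 (SE; limma adjusted p = 0.389). The NPPA slope was -0.67 ± 0.25 log2 units per mg/kg (SE; limma adjusted p = 0.518). No probe set, 0%, had an adjusted p under 0.05 for the slope, and 8.33% had an unadjusted one, 4.42% with a negative slope; both genes were among these. Untreated and low-dose means of NPPB lay close together, so its slope came mainly from the high-dose animals. The NPPA slope was -0.19 without high-dose replicate 2 and -1.18 without high-dose replicate 1.

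**Figure D3:**
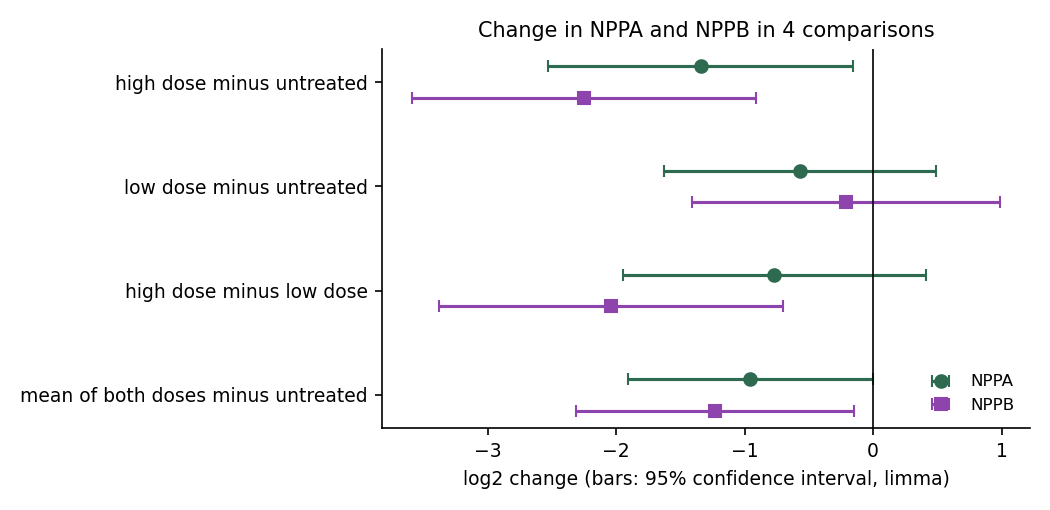
Log2 change of NPPA (circles) and NPPB (squares) in 4 comparisons, with the 95% confidence interval from limma as bars. At the high dose against untreated the intervals of both genes lie below 0, and against the low dose only that of NPPB does. Both low-dose intervals include 0, and those for the mean of both doses end at -0.00 for NPPA and -0.15 for NPPB. The intervals are not adjusted for the number of probe sets, and neither gene had an adjusted p under 0.05 in any of the 4 comparisons.

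Taking the doses together, NPPA averaged 7.62 ± 0.91 in treated animals (SD, n = 5) and 8.50 ± 0.08 in untreated animals (SD, n = 3). The difference of -0.88 had a p of 0.0357 in an exact permutation test, two-sided, which is the smallest p that 5 against 3 animals can give, and 0.107 after adjustment over the 3 permutation tests made. Of all probe sets, 1.13% were lower in every treated array than in every untreated array. NPPB averaged 7.73 ± 1.43 in treated animals (SD, n = 5) and 8.76 ± 0.34 in untreated animals (SD, n = 3), a difference of -1.03 with an exact permutation p of 0.286 and 0.429 adjusted. In limma the mean of both doses minus untreated was -0.96 ± 0.42 for NPPA and -1.23 ± 0.47 for NPPB (SE; adjusted p = 0.956 for each), where 0% of probe sets passed and 4.83% had an unadjusted p under 0.05, 2.41% with a lower level. Both genes were among these with all arrays, but NPPA was so only without high-dose replicate 1 when single arrays were left out, and NPPB was not without untreated replicate 1, untreated replicate 2 or high-dose replicate 1. The NPPA value was -1.49 without high-dose replicate 1 and -0.43 without high-dose replicate 2, and the NPPB value ran from -1.54 to -0.92 over the arrays left out.

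The lowest levels of the 2 genes were in different high-dose animals. High-dose replicate 1 had the lowest NPPB of all arrays, 6.21, with NPPA at 8.21. High-dose replicate 2 had the lowest NPPA, 6.09, with NPPB at 6.80. Low-dose replicate 2 was low in both, with NPPA at 7.44 and NPPB at 7.32, and low-dose replicate 1 had the highest NPPB of all arrays, 9.77, with NPPA at 8.05.

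Over the 8 animals no correlation of NPPA with NPPB was detected, with Pearson's r = 0.52 (exact permutation p = 0.216) and Spearman's rho = 0.40 (exact permutation p = 0.327), the 1 relation tested in this way. Without high-dose replicate 2 and low-dose replicate 2, the 2 animals farthest from the NPPA median, r was 0.04 (n = 6, exact permutation p = 0.894), in a narrower range of NPPA. Without high-dose replicate 1 alone, r was 0.79 (n = 7, exact permutation p = 0.0429), and over all animals left out in turn it ran from 0.34 to 0.79. After each group's mean was subtracted, r was 0.04. The difference NPPB minus NPPA in each animal was 0.64, 0.18 and -0.04 in untreated animals, 1.72, -0.13 and 0.27 at the low dose, and -2.01 and 0.71 at the high dose. Its mean was 0.11 ± 1.37 in treated animals (SD, n = 5) and 0.26 ± 0.35 in untreated animals (SD, n = 3), with an exact permutation p of 0.964, so a difference in size between the changes of NPPB and NPPA was not detected.

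**Figure D4:**
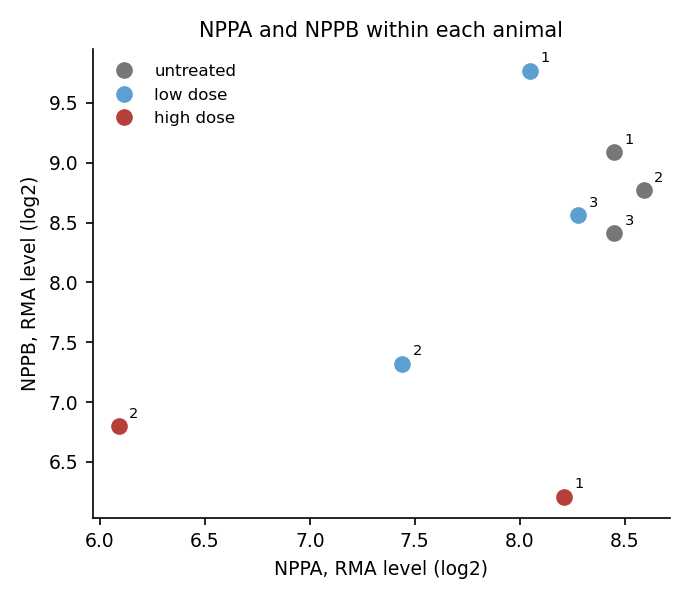
NPPA level (horizontal axis) against NPPB level (vertical axis), both on the log2 RMA scale, with 1 point for each animal coloured by group and numbered by replicate. The untreated animals form a tight cluster, and the 2 high-dose animals share a low NPPB level but differ in NPPA, at 8.21 and 6.09.

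Both genes varied more between animals of the same group than nearly all other genes. The residual SD was 0.73 for NPPA and 0.83 for NPPB, against a median of 0.191 over the 17999 probe sets whose mean lay above the lower quartile of 3.78; 1.73% and 1.10% of these had a larger one. Values below that quartile were taken as close to background, and both genes were above the lower quartile of the array on all 8 arrays. The spread of NPPA was small in untreated animals (SD 0.08) and came largely from the 2 high-dose animals (SD 1.50). That of NPPB was largest at the low dose (SD 1.23), while the limma fit gives all groups 1 spread.

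The tissue carried the markers of working ventricular muscle. Of 19 genes of all cardiomyocytes 14 were measured, none close to background, and their summed signal (log2 of the sum) was 17.50 to 17.53 at the high dose, above the 17.39 to 17.48 of untreated animals. Since the samples are bulk tissue, fewer cells of a type and less RNA per cell cannot be told apart. The 4 of 8 measured ventricular genes summed to 16.22 to 16.23 at the high dose and 16.14 to 16.24 in untreated animals. The brightest genes of these lists, TNNI3 and MYH7, had means of 14.76 and 14.87, near the highest value in the data, 15.01. Whether signals so high could follow cell content was not tested. Of 16 genes that mark atrial muscle, a tissue rich in NPPA, 9 were measured, and their sum was 11.86 and 11.99 in high-dose animals, against 11.73 to 12.09 in untreated ones. At the low dose it was 12.09 to 12.39. Of the 9 genes 6 were higher and 3 (DKK3, NR2F1 and NR2F2) lower at the high dose against untreated, with a median change of 0.05. The brightest gene of this list, PAM, was at 11.48 at the high dose and 11.47 in untreated animals. SLN was 1.84 higher at the high dose and NR2F2 changed by -0.35. The part of atrial muscle in the natriuretic peptide levels was not tested.

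Among the 13 marker lists, the sums of 4 other cell types were lower in both high-dose animals than in every untreated animal. Of all single probe sets, 12.0% were lower in this way. The sum of the 5 measured of 8 mesothelium genes was higher instead, at 6.94 and 7.38 against 6.64 to 6.92. That of all cardiomyocytes was higher too, as given above. The 11 measured of 15 fibroblast genes had sums of 12.49 and 13.02 in the high-dose animals, against 13.38 to 13.83 in untreated ones. The lowest low-dose sum was 13.24. Of the 11 fibroblast genes 9 were lower and 2 (COL3A1 and TCF21) higher at the high dose, with a median change of -0.77. The 10 measured of 13 macrophage genes had sums of 9.56 and 9.73 in the high-dose animals, against 10.13 to 10.68 in untreated ones. Here the lowest low-dose sum was 10.11. Of the 10 macrophage genes 8 were lower and 2 (CD14 and MARCO) higher at the high dose, with a median change of -0.54. The 10 measured of 12 endothelial genes had sums of 10.65 and 11.03 in the high-dose animals, against 11.09 to 11.28 in untreated ones, and overlapped the low-dose range. Of these 10 genes 7 were lower and 3 (TIE1, ESAM and ENG) higher at the high dose, with a median change of -0.07. The 4 measured of 6 adipocyte genes had sums of 12.24 and 12.46 in the high-dose animals, against 12.57 to 12.74 in untreated ones. Low-dose sums ran from 12.08 to 12.62 and so spanned both high-dose values. All 4 genes were lower at the high dose against untreated, with a median change of -0.18. The brightest, LPL and FABP4, changed by -0.05 and -0.61, and ADIPOQ was close to background. No fibroblast or macrophage gene was close to background, and the part of these cells in the natriuretic peptide levels was not tested. As a sign of RNA quality, actin and GAPDH controls read from the 3′ end exceeded those from the 5′ end by 2.38 and 2.47 log2 units in high-dose animals, which lay within the 2.35 to 2.82 of untreated ones. At the low dose the gap was 2.60 to 3.02, above both high-dose values and highest in low-dose replicate 1, the animal with the highest NPPB, and its part in the difference between the doses was not tested.

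No difference was detected in the rest of the natriuretic peptide pathway. Of 25 pathway genes 13 were measured with a single symbol, and 0 of 13 passed in limma in any of the 3 comparisons. NPPA and NPPB were the 2 with an unadjusted p under 0.05 at the high dose against untreated, and of the 11 others 0 had one in any comparison. The list median was -0.04 at the high dose and -0.12 at the low dose against untreated, beside 0.015 and 0.008 over all probe sets. Among the 11, the largest change at the high dose was 0.15 in size, and their 95% confidence intervals lay between -0.75 and 0.73, which leaves room for changes of moderate size.

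The third ligand gene, NPPC, encodes C-type natriuretic peptide, a product mainly of endothelium, and measured 4.21 ± 0.02 at the high dose (SD, n = 2) and 4.22 ± 0.10 in untreated animals (SD, n = 3). Its receptor gene NPR2 had a change of -0.15 ± 0.15 (SE) at the high dose, on the brighter of its 2 probe sets. Other receptors and processing enzymes of the list (NPR1, NPR3, CORIN, FURIN, MME) were not analysed here. DPP4, a peptidase that trims B-type peptide, measured 10.39 ± 0.09 at the high dose (SD, n = 2) and 10.43 ± 0.36 in untreated animals (SD, n = 3), and IDE, a protease that degrades atrial peptide, differed by 0.08 ± 0.28 (SE).

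Downstream of the receptors, the cyclic nucleotide phosphodiesterases PDE3A and PDE9A differed by -0.04 ± 0.31 and -0.09 ± 0.15 (SE) at the high dose against untreated, and PDE5A was close to background in every group. PAM, an amidating enzyme of atrial secretory granules, measured 11.48 ± 0.06 at the high dose (SD, n = 2) and 11.47 ± 0.12 in untreated animals (SD, n = 3). PAM was at 11.76 ± 0.20 in low-dose animals (SD, n = 3), a change of 0.29 against untreated (limma adjusted p = 0.998). The granule protein gene CHGA differed by 0.02 at the high dose, and CHGB and SCG2 were close to background.

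**Figure D5:**
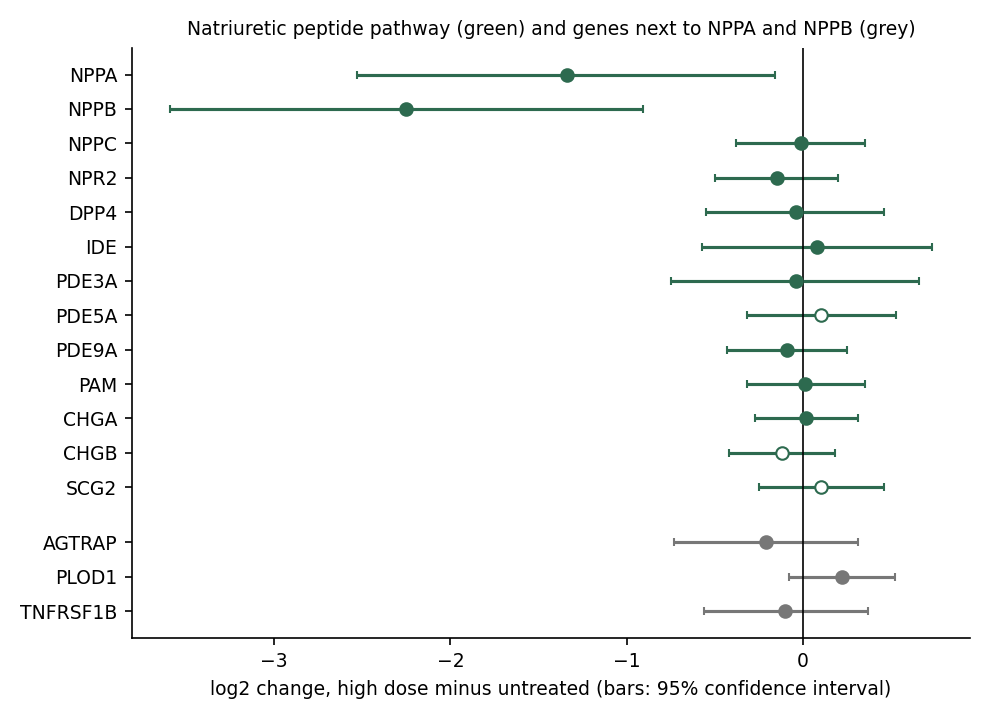
Log2 change at the high dose against untreated for the 13 measured genes of the natriuretic peptide pathway (green), with 95% confidence intervals. Grey marks the 3 measured genes among the 12 protein-coding genes nearest to NPPA and NPPB on the chromosome. Open circles are close to background. NPPB and NPPA lie at -2.25 and -1.34 and the 11 other pathway genes within 0.15 of 0.

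NPPA and NPPB are immediate neighbours in the RefSeq annotation of the pig assembly Sscrofa11.1, with 0 protein-coding genes between them. Of the 12 protein-coding genes nearest to the pair, 6 on each side, 3 were measured. The genes directly beside the pair, CLCN6 and KIAA2013, were not among them. AGTRAP, which encodes an angiotensin receptor-binding protein, had a change of -0.21 at the high dose against untreated (limma adjusted p = 0.884). PLOD1, a lysyl hydroxylase of collagen, was at 0.22 ± 0.13 and the TNF receptor gene TNFRSF1B at -0.10 ± 0.20 (SE). These neighbours were picked after the levels of NPPA and NPPB had been seen.

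Transcription factors and cofactors known to act on the NPPA or NPPB promoters were listed next, of which 23 of 44 were measured. None passed: 0 of 23 had an adjusted p under 0.05 in any of the 3 comparisons, while 7 had an unadjusted p under 0.05 at the high dose against untreated, 6 higher and 1 lower, beside 7.97% of all probe sets. There were 0 at the low dose against untreated, beside 4.50%, and 5 at the high dose against the low dose, all higher, beside 10.2%. The list median was 0.15 at the high dose and 0.04 at the low dose against untreated. Myocardin (MYOCD), a coactivator of serum response factor, had the smallest p; it measured 7.29 and 7.71 in high-dose animals, against 6.06 to 6.15 in untreated ones, and it passed with array weights. GATA4, which binds both promoters, had a change of 0.30 ± 0.13 (limma adjusted p = 0.629), and MEF2A and MEF2D were at 0.15 and 0.21.

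Values of the listed factors with an unadjusted p under 0.05 follow, none of which passed. FOS was at 12.15 ± 0.14 in high-dose animals (SD, n = 2) and 9.81 ± 0.91 in untreated animals (SD, n = 3), with a limma adjusted p of 0.42. ATF3 was at 3.58 ± 1.24 (SE) and EGR1 at 1.94 ± 0.75 (SE), with 1.03 and 3.26 on its dimmer probe sets (limma adjusted p = 0.513 for ATF3 and 0.562 for the brightest EGR1 probe set). HDAC5, a histone deacetylase that restrains MEF2, was at 0.69 ± 0.26 (SE; limma adjusted p = 0.546). KLF15, a Krüppel-like factor that restrains hypertrophic genes, was the 1 lower factor, at -1.11 ± 0.38 (SE; limma adjusted p = 0.5). TEAD1, which binds MCAT elements of muscle genes, was at 0.32 ± 0.13 (SE). The other immediate early factors measured, JUN and FOSL2, were at 0.82 ± 0.40 and 1.72 ± 0.86 (SE) and had no unadjusted p under 0.05 at the high dose against untreated.

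Other genes of wall stress and the fetal cardiac program included none with a detected fall at the high dose. Of 39 such genes 27 were measured and 0 passed in any of the 3 comparisons. At the high dose against untreated, 4 had an unadjusted p under 0.05 and all 4 were higher, beside 7.97% of all probe sets. There were 2 at the low dose against untreated, SLN and CLU, beside 4.50%, and 2 at the high dose against the low dose, CYR61 and HBEGF, beside 10.2%, again all higher. The list median was 0.08 at the high dose and 0.07 at the low dose against untreated. Sarcolipin (SLN), an inhibitor of the calcium pump that is abundant in atria, was at 6.74 ± 0.14 in high-dose animals (SD, n = 2) and 4.90 ± 0.40 in untreated animals (SD, n = 3), a change of 1.84 ± 0.50 (SE; limma adjusted p = 0.403). The slow skeletal troponin gene TNNI1, a fetal form in heart, was at 0.69 ± 0.29, the growth factor gene HBEGF at 1.16 ± 0.42 and the matricellular gene CYR61 at 1.51 ± 0.55 (SE). Clusterin (CLU), a secreted chaperone, was at 1.36 ± 0.60 and the ubiquitin hydrolase gene UCHL1 at -0.30 ± 0.14 (SE), neither with an unadjusted p under 0.05 at the high dose. At the low dose against untreated, CLU was at 1.84 ± 0.54 and SLN at 1.20 ± 0.45 (SE; limma adjusted p = 0.998 for each).

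ANKRD1, a titin-associated stretch sensor, measured 13.82 ± 0.20 in high-dose animals (SD, n = 2) and 13.85 ± 0.16 in untreated animals (SD, n = 3), and 1.13 higher on a dimmer probe set. FHL1 was at 0.08, XIRP2 at 0.03 and TNC, a matrix protein of injured myocardium, at -0.15 on the log2 scale. These 4 genes were chosen after their values were seen, as examples of members with little change.

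The genes most like each peptide gene across the animals were found by Pearson's r over the 8 animals, among 1004 other genes with a mean above background and a range of at least 1 log2 unit. These correlations are descriptions, since the points share their arrays and the group differences. For NPPB the highest were YIPF1 (r = 0.929), a Golgi membrane protein gene, POSTN (0.869), a matrix protein of activated fibroblasts, FRMD4B (0.860), CCNJ (0.856), RIPOR2 (0.831), CLP1 (0.821), COL8A1 (0.801) and NEK2 (0.785), a mitotic kinase. YIPF1 was at 6.50 to 7.16 in untreated animals, 6.34 to 7.13 in low-dose animals and 5.97 to 5.99 in high-dose animals. Within groups, after the group means were removed, YIPF1 had r = 0.82 with NPPB and POSTN 0.53. The lowest were ABCA1 (r = -0.878), a cholesterol exporter, LAP3 (-0.852), CHCHD4 (-0.809) and MYOCD (-0.787), the last with r = 0.08 within groups.

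For NPPA the highest were LYPLAL1 (r = 0.858), COL8A1 (0.781), a short-chain collagen, RGS18 (0.731), MAD2L1 (0.722), a spindle checkpoint gene, CSPP1 (0.713), LYVE1 (0.688), a receptor of lymphatic vessels and resident macrophages, MTHFD2 (0.683) and UBXN6 (0.681). The lowest were WFDC1 (r = -0.883), the interferon-induced genes DDX60 (-0.819) and MX1 (-0.790), and the heat shock gene HSPA6 (-0.808). COL8A1 was the 1 gene among the highest 8 of both. LYPLAL1 was at 5.52 to 6.85 in untreated animals, 5.69 to 5.85 in low-dose animals and 3.99 to 5.90 in high-dose animals, so like NPPA it was far apart in the high-dose animals. NPPB itself stood in place 43 for likeness to NPPA, and NPPA in place 128 for likeness to NPPB.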

How the data were processed

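Total RNA was extracted with Trizol and hybridised to Affymetrix porcine arrays, per the labels' protocols. The authors deposited log2 values for 24123 probe sets; per the submitters' processing notes these came from RMA in Partek 6.6. RMA corrects background and makes array distributions alike, so a shift shared by most genes would be removed. Arrays have no read depth, and their number limits the precision.

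The 124 control probe sets were left out. Of the 23999 tested, 10069 carried 1 gene symbol. Group means were estimated jointly from all 8 arrays with limma 3.58.1 under R 4.3.3 (5 residual and 3.50 prior degrees of freedom), with Benjamini-Hochberg adjustment within each comparison; passing means an adjusted p under 0.05. Permutation tests and correlations used scipy 1.17.1. The fit was tested on simulated data. The brightest probe set stood for a gene in lists.

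Named genes were both members, the measured pathway genes, the 6 with the smallest p at the high dose in each other list, and, for likeness, the 8 genes with the highest and 4 with the lowest r; others named are examples. Members and lists were chosen with earlier results of these data known. Replicate numbers follow sample order and pair nothing. Each array came from its own animal, per the labels.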

Additional observations from a re-analysis of the deposited data

How the results depend on the processing

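No paired analysis was possible because each array came from a different animal in 1 treatment group, and the labels name no pairs. The limma changes of NPPA and NPPB against untreated and between doses stayed above the adjusted p of 0.05 in every alternative run: an intensity trend, a robust prior, dim probe sets left out, median centring, renewed quantile normalization, only the groups compared, array weights, a covariate for the untreated and low-dose animals with neighbouring tag numbers, leaving those 2 animals out, and leaving out each array. The smallest adjusted p was 0.109, for NPPB at the high dose against untreated without the 2 animals of neighbouring tag numbers. Tag numbers here are the animal numbers in the sample titles, and the labels do not say what they mean. Both high-dose animals carry neighbouring numbers, as do untreated replicates 1 and 3, and the covariate did not cover these animals. A feature shared by the 2 high-dose animals of neighbouring numbers cannot be told apart from the high dose. Leaving out each array turned 3 results: NPPB at the low dose against untreated ran from -0.82 to 0.41, NPPA at the high dose against the low dose from -1.83 to 0.29, and NPPB minus NPPA, treated minus untreated, from -0.55 to 0.38. The treated minus untreated difference of NPPA in the exact permutation test ran from -1.05 to -0.50. With all animals its p was 0.0357 before and 0.107 after adjustment. The unadjusted p was above 0.05 whichever of the 8 animals was left out, because the smallest p those designs can give is above 0.05. The correlation of NPPA with NPPB ran from 0.34 to 0.79 and had an exact permutation p of 0.0429 without high-dose replicate 1. With array weights 1 transcription factor, MYOCD, passed at the high dose against untreated and 1 against the low dose, instead of 0; without low-dose replicate 1, 1 wall stress gene, CYR61, passed at the high dose against the low dose. The other counts of pathway, transcription factor and wall stress genes passing were 0 in the alternatives run for lists: any probe set of the gene, array weights and each array left out. Over all probe sets the number passing at the high dose against untreated was 0 as reported and with dim probe sets left out, 4 with an intensity trend, 7 with a robust prior, 3 with median centring, 9 with renewed quantile normalization, 13 with array weights, 2 with only the groups compared, 70 with the tag number covariate, 55 without the 2 tag number animals and 0 to 19 with single arrays left out. At the high dose against the low dose it was 6 as reported and 0 to 25 over the same alternatives. The mean of several probe sets was not run, since each member has 1, and the search for promoter motifs was not run.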
